A study of Mus musculus with 10 samples.

Results

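The data describe the DNA copy number of 850 kb of chromosome 3 around Sox2 in 10 mice, read at 43 of the 170305 positions probed by a 2-colour array for comparative genomic hybridisation. The 43 positions are those of all probes that start between 34000000 and 34850000 on chromosome 3 in mouse build mm9, and each was represented by 1 spot. The window had been chosen because its levels varied between these same animals, so its levels and their differences are given as a description. The 43 probes also stood in a test across all autosomal probes, and their part of it is not independent of that choice. All 10 animals were ZFLacZ mice, a transgenic line that goes back to a cross of SJL and C57BL/6, and the DNA came from liver. The 5 ICSI-derived animals, 3 males and 2 females by their labels, came from testis cells of the line that had been frozen for 14 years and were used for intracytoplasmic sperm injection (ICSI), with oocytes of DBA x C57BL/6 origin. The 5 naturally born animals, again 3 males and 2 females, are labelled as adult wild-type progeny of the line. The labels used here give no separate strain background for them, and their growth field carries the same text on frozen germ cells as that of the ICSI-derived animals, so the groups were taken from the descriptions. Oocytes of DBA x C57BL/6 origin enter only the ICSI-derived group in the labels, so an effect of the strains and of the procedure cannot be told apart. Ages in weeks and the promoter of the transgene are not given in the sources used here.

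Each animal's DNA was labelled with Cy5 and hybridised together with a Cy3-labelled reference that mixed DNA of C57BL/6, SJL and DBA mice in equal parts. The log2 ratio of Cy5 over Cy3, centred on the median of the autosomal probes of the array, is the level used throughout. A level under 0 means less signal from the animal than from the pool, and the copy number of the 3 pooled strains was not measured separately here. All 43 probes were well above background in both channels on all 10 arrays, and none of their 430 readings was saturated or flagged as an outlier. The headers of the files give the spread from probe to probe, which was 0.20 and 0.21 on the arrays of ICSI-derived replicates 1 and 4, 0.17 on that of naturally born replicate 2 and between 0.14 and 0.15 on the other 7, so single probes are less precise on those 3. Naturally born replicate 3 is labelled male, and its array did not match that label on the sex chromosomes. It lay at -0.033 on chromosome X, where the 4 females lay between 0.26 and 0.28 and the other 5 labelled males between -0.61 and -0.55. On chromosome Y it lay at -0.0072, with the females between -1.57 and -1.42 and the other labelled males between 0.75 and 0.82. The array thus stood between the sexes on both chromosomes. Group values over the variable stretch are therefore given with and without it.

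Sox2 encodes a transcription factor with a high-mobility-group box that keeps the cells of the early embryo pluripotent and maintains neural progenitors. It is a gene without introns, it lies in a gene-poor region, and it is controlled by enhancers that can act over long distances. It sits inside the transcribed span of Sox2ot, a long noncoding RNA gene that overlaps it. The arrays measured the amount of DNA and not the activity of any gene.

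A single variable stretch was found in the window, and it ended before the probes nearest to Sox2. Chromosome 3 was split into segments over all 10 arrays at once, and the stretch is the run of segments of the window whose means had an SD between animals of at least 0.1. It spanned 15 probes from 34295130 to 34523670, a length of 229 kb. The nearest probe before it ended at 34278023 and the nearest probe after it started at 34536627, which leaves gaps of 17.11 kb and 12.96 kb. With the ends found from all arrays together, the stretch is thus at most 259 kb long. In single animals the distal end may lie before its last probe, as the levels given below for that probe show. The probes within it were a median of 11.4 kb apart. The window also held 12 probes on the proximal side, from 34001253 to 34278023, and 16 on the distal side, from 34536627 to 34815138. Here proximal means towards the lower coordinates, which is the side upstream of Sox2.

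The animals fell at separate levels over the stretch, 8 of them low and 2 above 0. Among ICSI-derived animals the mean level was -0.32 in replicate 1, 0.12 in replicate 2, 0.12 in replicate 3, -0.42 in replicate 4 and -0.42 in replicate 5. Among naturally born animals it was -0.42, -0.38, -0.36, -0.39 and -0.43 in replicates 1 to 5. ICSI-derived replicates 2 and 3 thus stood 0.43 above the highest of the other 8 animals, and no animal lay in between. With a loss counted at a mean of -0.25 or less, all 5 naturally born animals and 3 of the 5 ICSI-derived animals had a loss. ICSI-derived replicates 4 and 5 lay within the range of the naturally born animals, and replicate 1 was the highest of the 8. Both animals above 0 are labelled male, as is ICSI-derived replicate 1, and the 2 ICSI-derived females lay at -0.42.

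**Figure D1:**
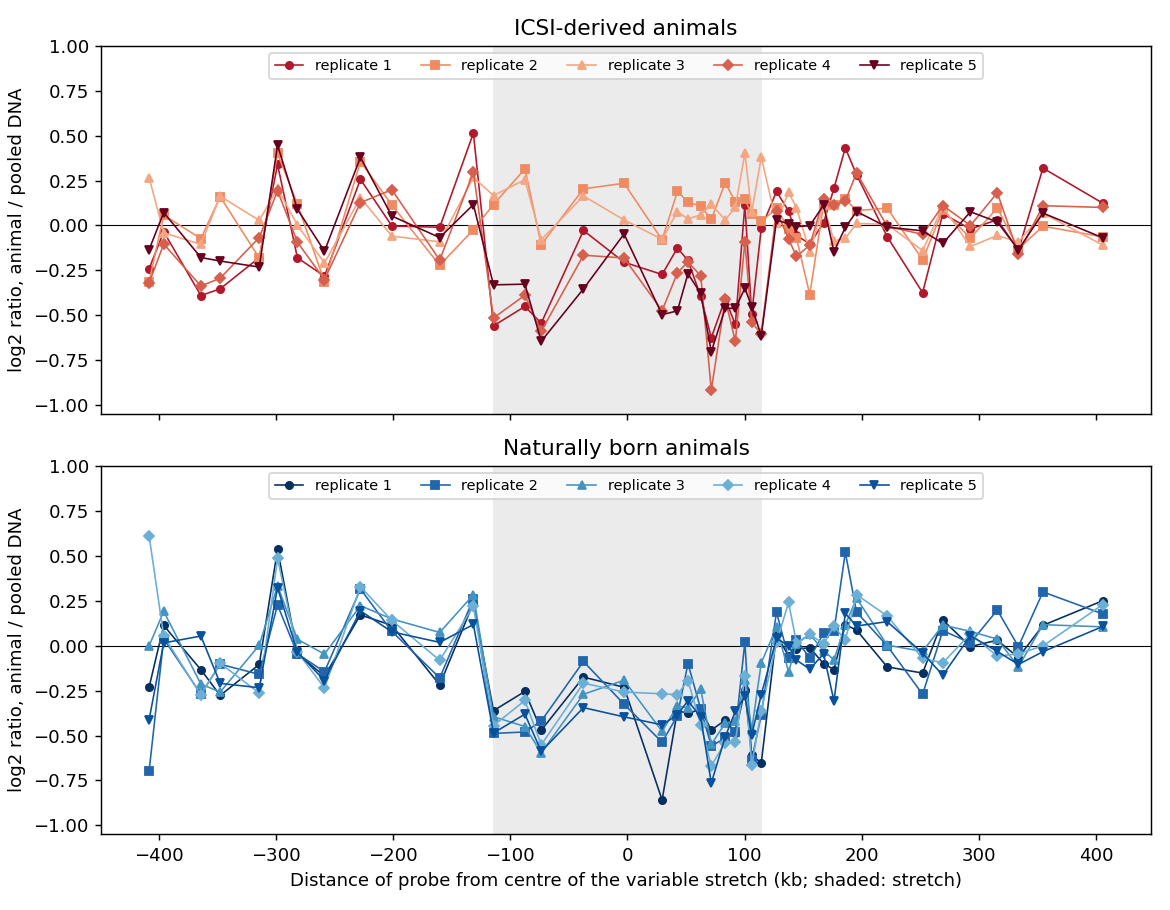
The log2 ratio of animal over pooled DNA (vertical axis) at each of the 43 probes, placed by their distance in kb from the centre of the variable stretch (horizontal axis), for 5 ICSI-derived animals above and 5 naturally born animals below. Over the shaded stretch of 15 probes ICSI-derived replicates 2 and 3 stay near or above 0 while the other 8 lines lie lower. On either side the lines mix at most probes, with a wide spread at some, such as -0.70 to 0.61 at 34001253.

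The group means over the stretch were -0.19 ± 0.28 among ICSI-derived and -0.40 ± 0.03 among naturally born mice (SD, n = 5 each), a difference of 0.21 with ICSI-derived animals higher. The difference is smaller than the SD within the ICSI-derived group, whose values overlapped those of the naturally born group. When the array labelled naturally born replicate 3 was left out, the naturally born mean was -0.41 ± 0.02 (SD, n = 4) and the difference 0.22. Leaving out ICSI-derived replicate 2 or ICSI-derived replicate 3 brought the difference to 0.14 in each case, so it rests on those animals. Within slide 1 it was 0.30 and within slide 2 it was 0.23, and each of these slides holds 1 of the higher animals. On slide 3, with 1 animal of each group, ICSI-derived replicate 5 and naturally born replicate 5 lay at -0.42 and -0.43.

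The separation of ICSI-derived replicates 2 and 3 from the rest was seen probe by probe. They had the 2 highest values of the 10 animals at all 15 probes of the stretch, which were themselves found from these values. At the first probe of the stretch, at 34295130, the ICSI-derived animals had levels of -0.56, 0.12, 0.17, -0.52 and -0.33 in replicates 1 to 5. The naturally born animals had levels of -0.36, -0.49, -0.40, -0.44 and -0.49 there. ICSI-derived replicates 2 and 3 were thus apart from the other 8 animals from the first probe on. The 2 probes just outside showed no such gap: all 10 animals lay between -0.22 and 0.074 at 34249229 and between -0.024 and 0.51 at 34277964, where ICSI-derived replicate 1 was the highest and replicate 2 the lowest. At the next probe inside, at 34321910, the ICSI-derived levels were -0.45, 0.31, 0.25, -0.39 and -0.33, and the naturally born levels ran from -0.48 to -0.25.

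Levels of different probes carry offsets of the probes themselves, so they are given without an order of depth. The lowest mean among naturally born animals was at 34480970, with -0.60. There the single naturally born levels were -0.47, -0.56, -0.55, -0.67 and -0.76 in replicates 1 to 5. In ICSI-derived animals the same probe gave -0.63, 0.033, 0.12, -0.92 and -0.70, and the value of replicate 4, on a noisy array, was the lowest of all readings in the window. The highest mean among naturally born animals within the stretch was at 34509646, with -0.17, where ICSI-derived replicates 2 and 3 were also high, at 0.15 and 0.40. There naturally born replicate 2, at 0.022, was the single naturally born reading above 0 among the 75 of the stretch, and ICSI-derived replicate 1 lay at 0.12. The median over the 15 probe means of the naturally born animals was -0.37.

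At the distal end the animals were parted at the last probe but 1 and less widely at the last. At 34515453, the former, the ICSI-derived levels were -0.49, 0.063, 0.073, -0.54 and -0.45. The naturally born animals lay between -0.67 and -0.47 there, so the pattern of the stretch was complete. At the last probe, at 34523611, the ICSI-derived levels were -0.016, 0.023, 0.38, -0.60 and -0.61, and the naturally born levels were -0.65, -0.39, -0.095, -0.36 and -0.27. ICSI-derived replicate 1 and naturally born replicate 3, which were low on average over the stretch, were near 0 at that probe. With each array segmented on its own, the loss ran over the same 15 probes in 6 animals and over 14 probes, to 34515512, in naturally born replicate 3. No loss segment was found that way in ICSI-derived replicate 1, and the reason was not tested. Its array had a spread from probe to probe of 0.20. That of ICSI-derived replicate 4, where the loss ran over all 15 probes, had 0.21. At the next probe outside, at 34536627, all 10 animals lay between 0.014 and 0.19, and the pattern was gone.

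The probes nearest to Sox2 lay outside the variable stretch. Gene names are not part of the scanner files, and the gene table at hand belongs to another build (GRCm38.p6), so its coordinates are not given. From general knowledge of the mm9 annotation, and not from the files, Sox2 falls between the probes at 34546948 and 34553671, and no probe overlaps the gene itself. The first of these, on the upstream side, had levels of 0.080, -0.018, 0.19, -0.075 and 0.0084 in ICSI-derived replicates 1 to 5. In naturally born replicates 1 to 5 its levels were -0.059, -0.068, -0.15, 0.24 and -0.00055. The second had levels of -0.056, -0.070, 0.098, -0.17 and -0.0065 in the ICSI-derived and of -0.019, 0.034, 0.010, 0.016 and -0.080 in the naturally born animals. At both probes the groups overlapped, and ICSI-derived replicates 2 and 3 lay among the other animals or just above them. The last probe of the stretch ended at 34523670, so 2 probes without its pattern, at 34536627 and 34546948, stood between it and Sox2. With Sox2 placed there, the variable stretch did not reach the gene at the spacing of these probes, and a change smaller than the gap between probes could not be seen.

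In the reference order of genes, which was used for names and order only, the 5 genes on the proximal side of Sox2 are Gm52624, Gm20515, Sox2ot, Gm42205 and Mir1897. On the distal side they are Gm34941, Gm3143, Gm38509, Gm21388 and Mir6378. None of the 10 is annotated as protein-coding, and of them Sox2ot overlaps Sox2. Which of the proximal genes lie inside the stretch, and whether it reaches the upstream part of Sox2ot, was not determined, since no annotation of mm9 was used here.

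The parts on either side of the stretch showed no such separation. The mean over the 16 distal probes lay between -0.019 and 0.090 in all 10 animals, with group means of 0.016 ± 0.035 for ICSI-derived and 0.036 ± 0.043 for naturally born mice (SD, n = 5 each). ICSI-derived replicates 2 and 3 were at -0.0063 and -0.014 there, in the lower part of that range. The mean over the 12 proximal probes lay between -0.074 and 0.071, with group means of -0.0098 ± 0.050 and 0.011 ± 0.056 (SD, n = 5 each). The differences between the groups, -0.020 on the distal and -0.021 on the proximal side, were smaller than the spread within each group.

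**Figure D2:**
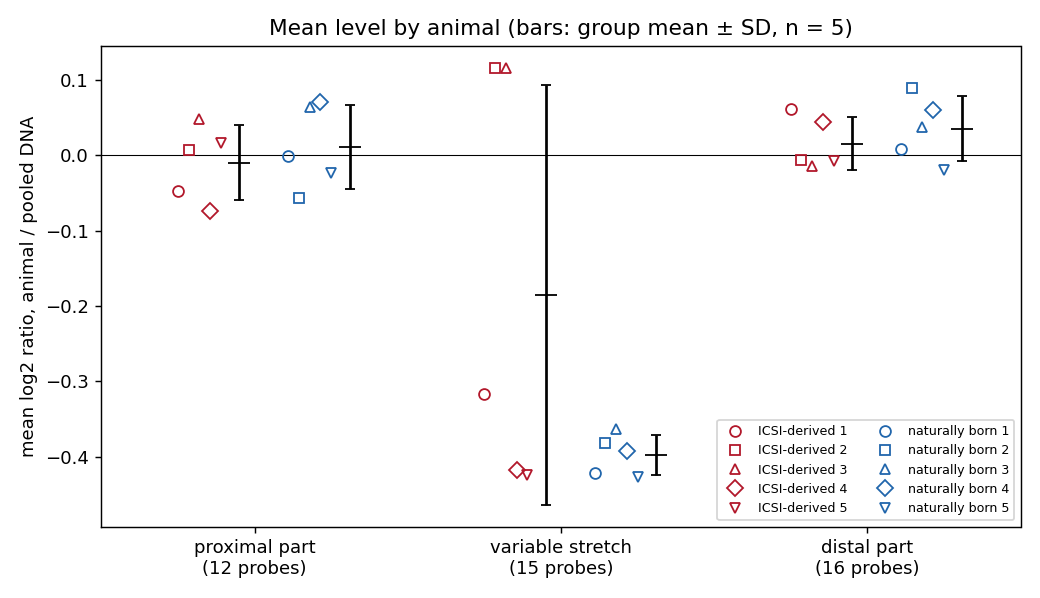
Mean log2 ratio of animal over pooled DNA (vertical axis) over the proximal part, the variable stretch and the distal part of the window, with 1 marker per animal and bars for the group mean ± SD (n = 5). Over the stretch 8 animals lie between -0.43 and -0.32 and 2 ICSI-derived animals lie at 0.12, while all 10 lie between -0.074 and 0.090 in the other parts.

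The spread between animals served to find the stretch, so its values by probe are a description of it and no check of its ends. All 15 probes of the stretch had an SD between animals of at least 0.15, with a median of 0.23, against 2 of the 12 proximal and 2 of the 16 distal probes, with medians of 0.10 and 0.11. The probe with the highest SD of the window was outside the stretch, at 34001253, with an SD of 0.37. Its levels were -0.24, -0.31, 0.27, -0.32 and -0.13 in ICSI-derived and -0.23, -0.70, -0.00017, 0.61 and -0.41 in naturally born animals, an order unlike that of the stretch. Among the 28 probes outside the stretch, ICSI-derived replicates 2 and 3 had the 2 highest values at 34061887 and the 2 lowest at 34564999 and 34702086. These probes were singled out after their values were seen. The first of them lay at 0.16 in both animals and between -0.35 and -0.098 in the other 8, which is the pattern of the stretch at a single probe. At the 8 probes between it and the stretch these animals were not the highest together.

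The difference in ratio came with the Cy5 channel, which holds the animal's DNA. Over the stretch the Cy3 intensity of the pool, on the log2 scale against the autosomal median of its array, lay between 0.10 and 0.15 on all 10 arrays. The Cy5 intensity measured in the same way was 0.27 and 0.24 in ICSI-derived replicates 2 and 3 and between -0.30 and -0.22 in the other 8 animals. The SD over the 10 arrays was 0.016 in Cy3 and 0.22 in Cy5. Over the 16 distal probes, the SD was 0.014 in Cy3 and 0.034 in Cy5.

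**Figure D3:**
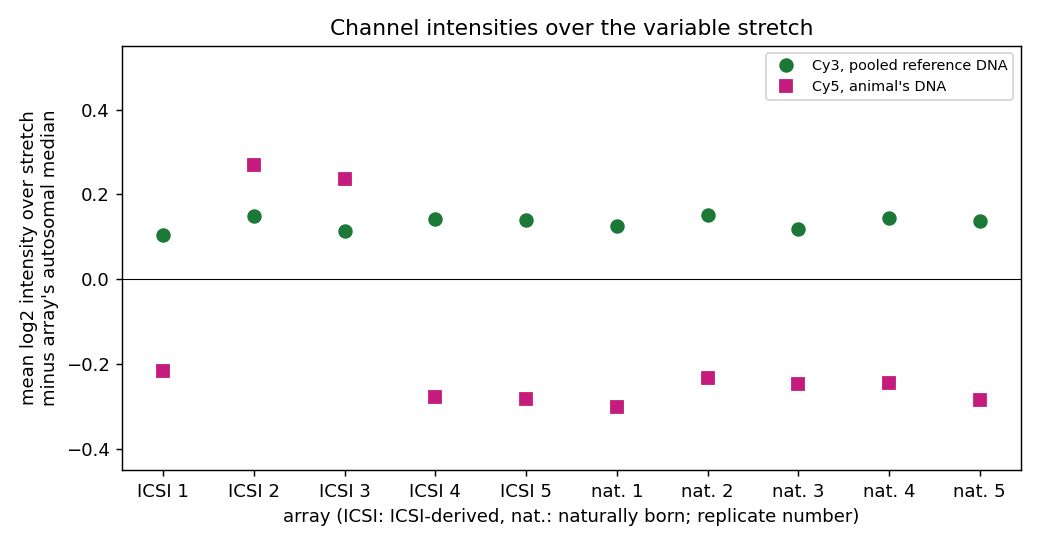
Mean log2 intensity over the 15 probes of the stretch minus the autosomal median of the array (vertical axis), for the Cy3 and the Cy5 channel of each of the 10 arrays (horizontal axis). The Cy3 points lie between 0.10 and 0.15 on all arrays, and the Cy5 points of ICSI-derived replicates 2 and 3 stand apart at 0.27 and 0.24.

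The comparison of the groups across all autosomal probes called no probe of the window. With group and sex in limma's model, 32 of 161460 autosomal probes, or 0.0198%, had a Benjamini-Hochberg adjusted p under 0.05, and 0 of the 43 probes of the window were among them. Of the 32, ICSI-derived animals were higher at 25 (0.0155%) and lower at 7 (0.00434%), and without ICSI-derived replicate 3 the 32 became 77. The lowest adjusted p in the window was 1.00. Without adjustment 8 of the 43 had a limma p under 0.05, of which 6 lay in the stretch and 7 were higher in ICSI-derived animals, against 3.27% of all autosomal probes. That count was 2 without ICSI-derived replicate 2 or 3, 4 without naturally born replicate 1 or 3, 13 without ICSI-derived replicate 5, and it rose to 15 with ICSI-derived replicate 1 left out. The window was chosen on these arrays, so nothing is read from these counts. All 15 probes of the stretch had a higher mean in ICSI-derived animals, with a median difference of 0.21, and the median difference over all 43 probes was 0.020.

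In the stretches of 850 kb on either side of the window, the mean levels of the groups did not differ beyond the spread between animals. Over the 40 probes in the 850 kb before the window the mean level was -0.0030 ± 0.032 for ICSI-derived and 0.017 ± 0.018 for naturally born mice (SD, n = 5 each; two-sided exact permutation, p = 0.262, adjusted p = 0.524 over 2 tests). Over the 29 probes in the 850 kb after it the means were 0.0050 ± 0.018 and 0.014 ± 0.023 (SD, n = 5 each; two-sided exact permutation, p = 0.571, adjusted p = 0.571 over 2 tests). The smallest p that 5 against 5 animals can give is 0.00794.

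On chromosome 3 as a whole, 8 of 30 segments had an SD between animals of at least 0.1, and the stretch near Sox2 held the most probes of them. The other 7 held 5 to 12 probes. The SD of the stretch, 0.22, ranked number 3, after a segment of 5 probes from 93461477 to 94071622 and a segment of 6 probes from 114366952 to 114514168. These sorted the animals in other ways. In the segment of 5 probes, ICSI-derived replicate 2 was at -0.81 and ICSI-derived replicate 3 at 0.027. In the segment of 6 probes, replicate 3 was at -0.59 and replicate 2 at 0.15. The 2 animals that lay together over the stretch were therefore far apart in both of those segments.

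**Figure D4:**
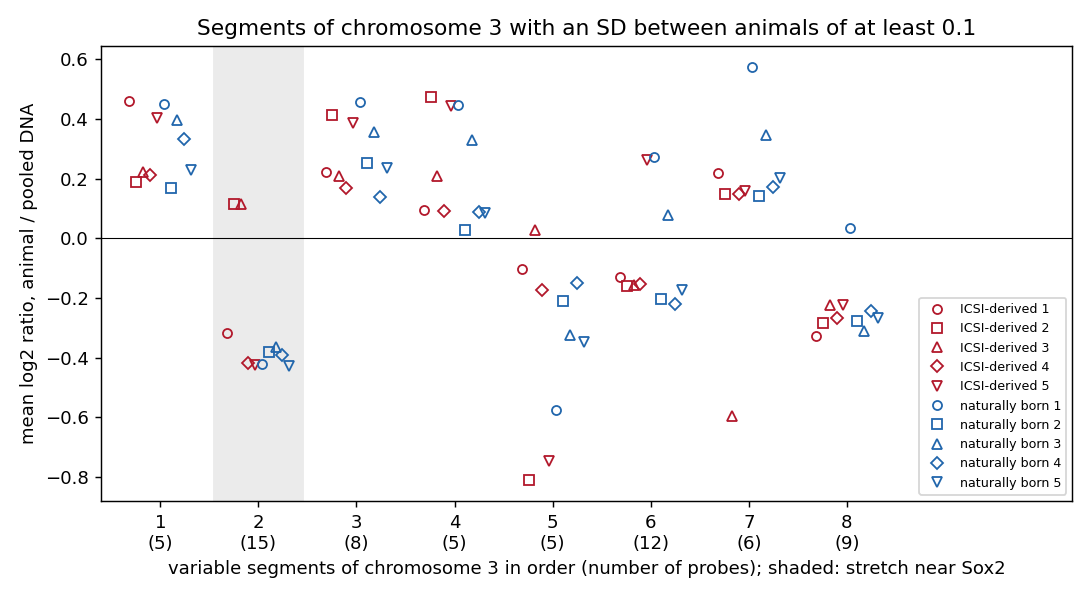
Mean log2 ratio (vertical axis) of each animal in the 8 segments of chromosome 3 whose means had an SD between animals of at least 0.1, in chromosomal order with their number of probes (horizontal axis). In the shaded segment, the stretch near Sox2, ICSI-derived replicates 2 and 3 lie at 0.12, and in the segments numbered 5 and 7 they lie far apart from each other.

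The stretch was set beside blocks of the same number of probes as a description, since the window was chosen, and the ends of the stretch were fitted, on this same spread between animals. Of 10753 blocks of 15 consecutive autosomal probes outside the window, 17, or 0.158%, had an SD between animals at least as high as the stretch, and the median SD was 0.037. The 5 blocks whose levels were most like those of the stretch had a mean absolute difference from it between 0.16 and 0.20 over the 10 animals, against a median of 0.34 over all blocks. They lay on chromosome 16 (57739160 to 58062076, 44952335 to 45145706 and 74336522 to 74613108), chromosome 8 (94243579 to 94579189) and chromosome 4 (145029619 to 146804371). In the nearest, from 57739160 on chromosome 16, ICSI-derived replicate 3 was at 0.029 and the other 9 animals were between -0.28 and -0.19. In the block on chromosome 8, ICSI-derived replicates 2 and 4 were at 0.014 and 0.0098 and the others between -0.27 and -0.20. ICSI-derived replicates 2 and 3 had the 2 highest levels in just 1 of the 5 blocks, the one from 74336522 on chromosome 16, where all 10 animals were within -0.27 and -0.11.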

How the data were processed

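Liver DNA of 10 mice was hybridised to 10 two-channel Agilent arrays, 1 animal per array, on 3 slides that each hold both groups equally. Agilent Feature Extraction 10.7.3.1 made the deposited processed intensities by subtracting background, detrending and applying linear dye normalisation, per the file headers. The deposited log10 ratios of the value table equalled those of the scanner files. Partek 6.5 is named, with no role given, in the submitters' processing notes. Build mm9 stands in 6 headers, and the remaining 4 arrays list the same coordinates.

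After removal of control spots, spots of a probe were averaged and log2 ratios of processed intensities centred on the autosomal median, without loess. Chromosome 3 was split by optimal partitioning over all arrays together (penalty factor 10, at least 5 probes). Single arrays were split with a penalty factor of 3. The test between groups was that of limma 3.58.1 (R 4.3.3, group and sex, two-sided, Benjamini-Hochberg at 0.05 over all autosomal probes). Other steps used Python 3.11.15. The joint segmentation and the limma fit were also run on simulated data, with outcomes not given here. In the limma simulation the changed probes were shifted alike in all ICSI-derived animals. The stretch differs from that, so the simulation does not show whether limma could call such a pattern. The window, the rules and the lists were chosen with earlier results of these data known. Named probes are the 2 first and last of the stretch, the 2 outside each end and the 5 with the highest SD. Named blocks are the 5 with the smallest mean absolute difference from the stretch. The probes beside Sox2, the parted probes outside the stretch, the probe with the highest naturally born mean in the stretch and the test of the flanks were picked with the data already seen. The number of arrays limits the precision. Probe sequences were not used here. Normexp was run on median intensities with an offset of 50.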

Additional observations from a re-analysis of the deposited data

How the results depend on the processing

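The stretch kept its 15 probes and both ends with penalty factors of 5 and 20 and with SD thresholds of 0.05 and 0.15. With the arrays segmented singly, 15 was also the median over the animals with a loss segment. That median leaves out ICSI-derived replicates 1, 2 and 3, which had none, and replicate 1 is counted above among the animals with a loss. The difference between the groups over the stretch ran from 0.18, with the median over its probes, to 0.30, within slide 1, over 12 other settings. Those settings changed the centring (all probes, or chromosome 3), the background correction (normexp), the dye normalisation (loess), the source of ratios, the filters on probes, the slides, the block and, chosen after seeing the data, the stretch without its last probe. The block gives the same difference by construction. The source of ratios and the filters on probes could hardly change a level in the window. The deposited ratios equalled those of the scanner files, and no reading of the window was flagged or failed the background filter. With single animals left out the difference over the stretch ran from 0.14 to 0.27. The SD of the ICSI-derived group exceeded that of the naturally born group by 0.25, from 0.24 to 0.26 over 7 other settings and from 0.23 to 0.28 with single animals left out. The difference over the distal part stayed between -0.034 and -0.0063. The number of animals with a loss was 8, and it was 7 at a threshold of -0.35, where ICSI-derived replicate 1 drops out. No probe of the window was called by limma in any of 20 alternative fits. Those fits called from 25 to 77 of all the autosomal probes tested, so a count of 0 among 43 does not set the window apart.

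With the replicate number as a block, limma called 25 of the 161460 autosomal probes and 0 of the 43 in the window. Without adjustment 10 of the 43 had a limma p under 0.05, against 5236 of the 161460, and nothing is read from that count. The mean of the differences over the stretch between animals of the same number was 0.21. With every animal in a pair this equals the difference of the group means by construction, so nothing is read from it. Animals of the same number share a slide and a labelled sex. Beyond that the numbers showed no pairing in the levels of the autosomal probes, taken as deviations from the group means. Same-numbered animals correlated between -0.28 and 0.15, above 0.1 in 2 of 5 pairs, and 0 of 5 correlated best with their own number. All 43 probes were well above background on all arrays, and other limits of the signal were not tested.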
